A study of Mus musculus with 6 samples.

Results

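Small leucine-rich proteoglycans are secreted matrix proteins, and the cartilage oligomeric matrix protein Comp is a member of the thrombospondin family. The abundance of 9 proteoglycan transcripts (Lum, Dcn, Bgn, Fmod, Ogn, Omd, Prelp, Aspn and Podn) and of Comp was followed in cultured brown adipocytes of WT and Ucp1-KO mice. These 10 of 22466 genes with a RefSeq transcript were chosen by name, and the RefSeq transcript with the highest mean over all cultures stands for each gene. Lum and Comp were already on the study's list of differential genes, which was drawn from the same cultures, so that all differences between the genotypes given for these genes are descriptions.

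Precursor cells from interscapular brown adipose tissue of young male 129SvEvS1 mice were grown to confluence and differentiated in the dish. All cultures were induced with isobutylmethylxanthine, indomethacin, dexamethasone, insulin, triiodothyronine and rosiglitazone and then kept with insulin, triiodothyronine and rosiglitazone. RNA of 3 WT cultures (replicates 10, 11 and 12) and of 3 cultures from UCP1(-/-) mice, called Ucp1-KO here (replicates 13, 14 and 15), was sequenced. The knockout mice lack functional Ucp1 in all cells and not in adipocytes alone, and the cultures were prepared from the stromal-vascular fraction, which holds other cells than adipocyte precursors. The labels do not say how many mice went into a culture.

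Abundance was given by the authors in RPKM, which are reads scaled to the length of the transcript and to the total of mapped reads, and totals of 14989604 to 17727653 reads per culture were recovered from these values. Ucp1 itself lay between 981 and 1775 RPKM in the WT cultures and at 307 to 409 RPKM in the knockout, where the remaining transcript is a non-functional remnant. Of 8 adipocyte markers, Adipoq, Fabp4, Plin1, Pparg, Cidec, Retn and Cidea were present in all cultures, from 29.6 RPKM for Retn in Ucp1-KO replicate 14 to 29312 RPKM for Fabp4 in Ucp1-KO replicate 15, while Lep had means of 0.294 and 0.305 RPKM. Fabp4 made up most of their sum of 29652 to 33463 RPKM. Ucp1-KO replicate 14 stood apart by its macrophage markers (5 genes, 776 RPKM in sum against 41.7 to 168 RPKM in the other cultures).

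The protein core of this family is a curved stack of leucine-rich repeats that binds collagen, and most members carry chains of chondroitin, dermatan or keratan sulphate. By binding to collagen they set the diameter and spacing of fibrils, and several of them also bind growth factors of the TGF-β family. In adipose tissue they are made mainly by fibroblast-like stromal cells and precursors, and the matrix around them is remodeled while fat cells form. The family is sorted into classes by sequence, of which class I (Dcn, Bgn and Aspn), class II (Lum, Fmod, Prelp and Omd), class III (Ogn) and class V (Podn) are described here.

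Several of these genes lie next to each other. Dcn (97479500 to 97518163) and Lum (97565501 to 97572703) are neighbors on chromosome 10 of GRCm38, 47.3 kb apart on the forward strand, and are followed by Kera and Epyc. Aspn, Omd and Ogn follow each other on the forward strand of chromosome 13 (49544443 to 49624501), with 14.9 and 15.4 kb between them, and Ecm2 lies 11.7 kb before Aspn. Prelp (133910304 to 133930102, reverse strand) and Fmod (134037254 to 134048280, forward strand) lie 107 kb apart on chromosome 1. Bgn is on chromosome X (73483601 to 73495936), Podn on chromosome 4 (108014793 to 108031954, reverse strand) and Comp on chromosome 8 (70373548 to 70382066).

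Promoter sequences were taken from RefSeq on GRCm38.p6, where 7 of the 10 genes had an entry. Shown are the 250 bases before the transcription start, read 5′ to 3′, of the most abundant gene (Bgn, chrX:73483351-73483600), of Podn (chr4:108031955-108032204, the outer of its 2 starts) and of the chromosome 1 neighbors Prelp (chr1:133921402-133921651, before a start that lies inside the annotated gene) and Fmod (chr1:134037004-134037253), whose abundance ran differently over the cultures. Capitals mark the motifs named after them, in either orientation, so that a motif on the other strand appears as its reverse complement.
Bgn: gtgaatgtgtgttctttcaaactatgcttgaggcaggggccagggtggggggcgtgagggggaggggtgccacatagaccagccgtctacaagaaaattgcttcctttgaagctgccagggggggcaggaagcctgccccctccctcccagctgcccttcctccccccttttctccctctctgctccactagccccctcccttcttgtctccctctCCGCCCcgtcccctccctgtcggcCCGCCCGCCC
Podn: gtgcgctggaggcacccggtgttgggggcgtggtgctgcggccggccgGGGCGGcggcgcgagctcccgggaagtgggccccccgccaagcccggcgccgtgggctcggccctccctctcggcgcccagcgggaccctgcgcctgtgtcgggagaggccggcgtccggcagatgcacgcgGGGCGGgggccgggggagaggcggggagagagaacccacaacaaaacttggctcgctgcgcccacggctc
Prelp: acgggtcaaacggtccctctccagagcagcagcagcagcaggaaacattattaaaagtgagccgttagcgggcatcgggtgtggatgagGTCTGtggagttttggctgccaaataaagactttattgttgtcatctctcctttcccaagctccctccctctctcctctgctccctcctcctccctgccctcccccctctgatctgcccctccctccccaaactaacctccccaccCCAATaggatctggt
Fmod: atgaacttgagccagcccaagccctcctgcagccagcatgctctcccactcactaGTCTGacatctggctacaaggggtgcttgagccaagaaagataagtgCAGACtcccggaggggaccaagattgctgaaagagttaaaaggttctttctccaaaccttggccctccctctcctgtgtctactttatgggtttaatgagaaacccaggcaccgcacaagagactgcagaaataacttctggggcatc

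All motifs were searched on both strands, in the promoters of these genes and in 32851 promoter windows of this length. The TATA box TATAAA was in 12.4% of all windows, the GC box GGGCGG in 32.7% and the CCAAT motif in 33.8%. The AP-1 motif TGANTCA was in 6.75% of all windows, the TEAD motif GGAATG in 12.6% and the SMAD motif CAGAC in 42.2%. Bgn had 3 GC boxes, 2 of which overlap, and 64.4% G and C. Podn had 2 GC boxes at 78% G and C, against a median of 52.4% over all windows. Prelp had a CCAAT motif that starts 15 bases before this inner start and a CAGAC motif, and Fmod had 2 CAGAC motifs. Aspn had 2 TATAAA motifs and a CCAAT motif, and Ogn had 2 TATAAA motifs and a GGAATG motif. TGANTCA was in none of the 8 windows of the 7 genes. These matches are descriptions of letters, not of bound sites.

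Abundance differed widely within the family. In WT cultures Bgn led with a mean of 655 ± 153 RPKM (SD, n = 3), rank 56 of 28890 RefSeq transcripts, and made up between 67.9% and 75.8% of the sum of the 10 genes. Prelp followed with 113 ± 40.5 RPKM (rank 567) and Dcn with 72.3 ± 18.6 RPKM (rank 991, SD, n = 3 each). Aspn, Ogn and Podn had means of 18.9, 11.6 and 9.39 RPKM, Lum and Fmod of 5.85 and 4.87 RPKM, and Comp and Omd of 0.959 and 0.356 RPKM. The ranges of neighbors in this order overlapped between Prelp and Dcn and between each gene and the next from Aspn to Fmod. Within each WT culture this order held for all of these neighbors except Ogn and Podn, of which Podn was higher in replicate 10. Bgn stood clear above Prelp, Dcn above Aspn and Fmod above Comp. The ranges of Comp and Omd did not overlap either but nearly met in WT replicate 10, at 0.435 RPKM (18 reads) for Comp and 0.401 RPKM (12 reads) for Omd.

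In Ucp1-KO cultures Bgn, Prelp, Dcn, Aspn, Ogn and Podn kept these places, and now the ranges of neighbors from Bgn down to Fmod did not overlap. Fmod and Lum changed places, as did Omd and Comp, and within each of these pairs the ranges overlapped. The 10 genes summed to 777, 1089 and 812 RPKM in the WT cultures (replicates 10, 11 and 12). In the Ucp1-KO cultures (replicates 13, 14 and 15) the sums were 797, 627 and 545 RPKM. The genotypes overlapped in this sum, because Ucp1-KO replicate 13 lay above WT replicate 10. Of the difference of 236 RPKM between the mean sums, 193 RPKM were Bgn and 33.0 RPKM Dcn.

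**Figure D1:**
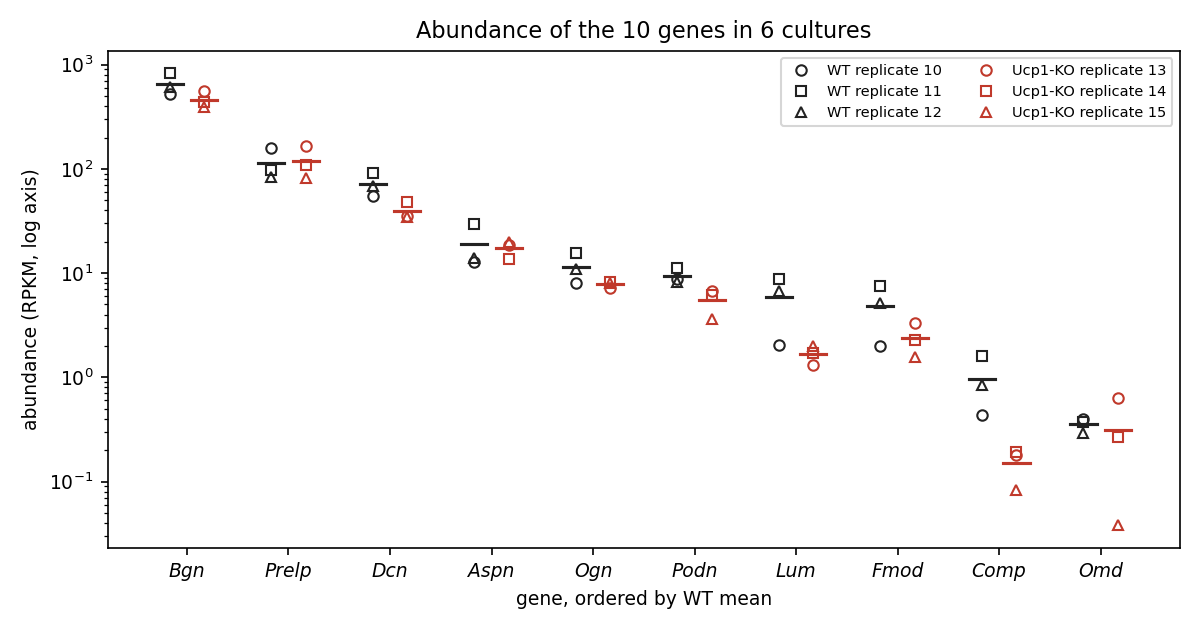
Abundance (RPKM, log axis) of the 10 genes in each culture, ordered by WT mean. Black symbols are WT, red symbols Ucp1-KO cultures and short lines the group means. The red points of Dcn, Podn, Lum and Comp all lie below the black ones.

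Between the genotypes, Lum, Dcn, Podn and Comp were lower in every Ucp1-KO than in every WT culture, and the other 6 genes overlapped. By comparison, 5.15% of the 16865 RefSeq transcripts tested had all Ucp1-KO below all WT cultures, 6.04% had them above, and 11.2% did not overlap in either direction. On log2(RPKM + 1), 8 of the 9 genes that reached the minimum mean of 0.5 RPKM had lower means in Ucp1-KO cells, against 50.4% of all transcripts. Omd did not reach the minimum, and Comp reached it only through its WT cultures. None of the 9 genes and 0% of all transcripts passed limma's test after Benjamini-Hochberg adjustment, with adjusted p-values between 0.868 and 0.994 for these genes. At an unadjusted limma p under 0.05 there were 5 of the 9 (Dcn, Comp, Podn, Lum and Bgn), beside 5.54% of all transcripts, made up of 3.24% lower and 2.3% higher in Ucp1-KO cells. This count was 2 without WT replicate 11 (1.88% of all transcripts), 3 without WT replicate 12 (2.61%) and 7 without WT replicate 10 (10.4%). Lower abundance of a stromal gene in a culture can come from fewer cells of that type or from less RNA per cell, and bulk RNA does not tell them apart.

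Lumican (Lum, NM_008524), a keratan sulphate proteoglycan that binds collagen fibrils and is best known from the cornea, had the largest fold change among the 9 genes on the log2(RPKM + 1) scale. Its abundance was 2.03, 8.81 and 6.71 RPKM in WT replicates 10, 11 and 12, on 72, 305 and 247 reads. It was 1.31, 1.71 and 1.99 RPKM in Ucp1-KO replicates 13, 14 and 15, on 44, 61 and 62 reads. Only WT replicates 11 and 12 were clearly high, while WT replicate 10 lay just above Ucp1-KO replicate 15. The Ucp1-KO mean was 28.6% of the WT mean, with a log2 fold change of -1.20 (standard error 0.41). Without WT replicate 10 it was -1.71 and without WT replicate 11 -0.87. All 3 Lum transcripts of any annotation in the table had the same order of genotypes, with Ucp1-KO means between 28.6% and 29.2% of the WT mean, though they share reads.

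Decorin (Dcn, NM_007833), the neighbor of Lum, is a class I proteoglycan with a single chondroitin or dermatan sulphate chain that limits fibril growth and binds TGF-β. It had 55.4, 92.2 and 69.2 RPKM in the WT cultures and 35.4, 47.9 and 34.4 RPKM in the Ucp1-KO cultures, in the order of the replicates. The highest Ucp1-KO culture, replicate 14, stayed below the lowest WT culture, replicate 10. The Ucp1-KO mean was 54.3% of the WT mean (39.2 ± 7.54 against 72.3 ± 18.6 RPKM, SD, n = 3), with a log2 fold change of -0.85 (standard error 0.21). Between 924 and 2762 reads stood behind each value, so that counting error was small beside the spread between cultures. All 8 Dcn transcripts of the table with a mean of at least 0.5 RPKM kept the genotypes apart.

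Lum and Dcn did not follow each other in a fixed proportion, although they are neighbors. The ratio of Lum to Dcn was 0.0955 and 0.0970 in WT replicates 11 and 12 and 0.0367 in WT replicate 10, which lay within the 0.0356 to 0.0580 of the Ucp1-KO cultures. Kera, the next gene on the chromosome, was listed at 0 in all 6 cultures, and Epyc, behind it, had at most 0.0696 RPKM in the WT and 0 RPKM in the Ucp1-KO cultures. Keratocan is known from the cornea and epiphycan from cartilage.

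Podocan (Podn, NM_172874), a class V member that binds collagen and restrains smooth muscle cell growth, had 8.71, 11.2 and 8.28 RPKM in the WT cultures. In the Ucp1-KO cultures it had 6.72, 6.23 and 3.64 RPKM. Replicate 15 was the lowest of all 6 cultures. The Ucp1-KO mean was 58.9% of the WT mean, with a log2 fold change of -0.69 (standard error 0.22), or -0.47 without Ucp1-KO replicate 15. Of 9 Podn transcripts in all annotations with a mean of at least 0.5 RPKM, 7 kept the genotypes apart.

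Comp (NM_016685) encodes a secreted protein of several subunits that links collagens in cartilage and tendon and is also made by activated fibroblasts. It had 0.435, 1.61 and 0.837 RPKM in the WT cultures, on 18, 65 and 36 reads, and 0.179, 0.191 and 0.0825 RPKM in the Ucp1-KO cultures, on 7, 8 and 3 reads. Ucp1-KO replicate 15 was at the floor of 3 reads, which corresponds to between 0.0698 and 0.0825 RPKM for this transcript. Taken over the genotypes, 119 WT reads stood against 18 Ucp1-KO reads, a ratio of 6.21 after correction for the totals (exact 95% interval 3.77 to 10.8, which covers counting error only and not the spread between cultures). The log2 fold change was -0.73 (standard error 0.22) on log2(RPKM + 1). It was -1.95 where the added constant was 0.1 RPKM, and limma-voom gave -2.43 from whole reads, since a constant of 1 RPKM is larger than all Ucp1-KO values.

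**Figure D2:**
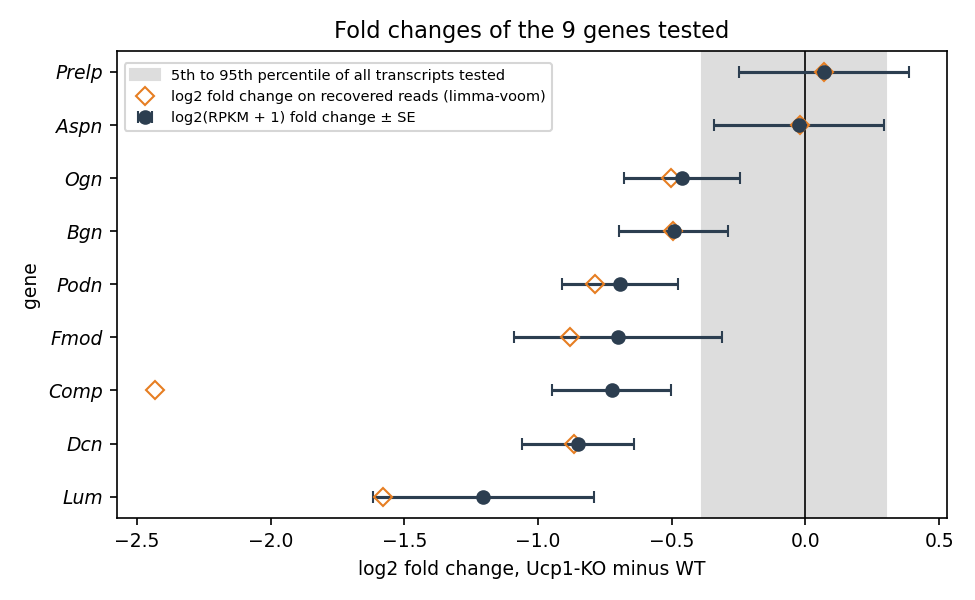
Log2 fold change of the 9 genes tested, Ucp1-KO minus WT, with the standard error as bars. Open diamonds are limma-voom values on recovered reads, and the grey band runs from the 5th to the 95th percentile of all 16865 transcripts (-0.39 to 0.30). Prelp and Aspn lie inside the band, and Comp moved from -0.73 to -2.43 with the scale.

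Biglycan (Bgn, NM_007542), the class I relative of decorin with a pair of glycosaminoglycan chains, had 528, 825 and 613 RPKM in WT cultures, against 558, 437 and 393 RPKM in Ucp1-KO cultures. Ucp1-KO replicate 13 lay above WT replicate 10, so that the genotypes overlapped. The Ucp1-KO mean was 70.6% of the WT mean (463 ± 85.5 against 655 ± 153 RPKM, SD, n = 3), with a log2 fold change of -0.49 (standard error 0.20), or -0.31 without WT replicate 11. Relative to Dcn it was similar in 4 of the cultures, with ratios between 8.86 and 9.53, and higher in Ucp1-KO replicates 13 (15.7) and 15 (11.4).

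Fibromodulin (Fmod, NM_021355), the class II relative of lumican that binds the same region of collagen, had 1.99, 7.44 and 5.19 RPKM in WT cultures. In Ucp1-KO cultures it had 3.31, 2.29 and 1.56 RPKM. As with Lum, WT replicates 11 and 12 were high and WT replicate 10 was not, but here WT replicate 10 fell among the Ucp1-KO cultures. The log2 fold change was -0.70 (standard error 0.39) and depended on the cultures included, with -0.38 without WT replicate 11 and -1.12 without WT replicate 10.

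Osteoglycin (Ogn, NM_008760), also called mimecan, had 7.98, 15.7 and 10.97 RPKM in WT cultures, against 7.26, 8.15 and 8.09 RPKM in Ucp1-KO cultures. The Ucp1-KO cultures were close to each other (SD 0.496 RPKM), and WT replicate 10 lay among them. The log2 fold change was -0.46 (standard error 0.22), or -0.23 without WT replicate 11. Scaling by the median of ratios moved WT replicate 10 just enough to separate the genotypes for Ogn as well.

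Asporin (Aspn, NM_001172481), a class I member without a glycosaminoglycan chain that binds collagen and TGF-β, had 12.8, 29.9 and 13.95 RPKM in WT cultures. Its Ucp1-KO values were 18.8, 13.6 and 20.1 RPKM. WT replicate 11 alone was high, WT replicate 10 was the lowest of all 6 cultures, and WT replicate 12 lay at the lower end of the Ucp1-KO cultures. The median was higher in Ucp1-KO (18.8 RPKM) than in WT cells (13.95 RPKM), while the mean was lower. The log2 fold change was -0.02 (standard error 0.32), and it was 0.35 without WT replicate 11 and 0.14 without Ucp1-KO replicate 14.

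Osteomodulin (Omd, NM_012050), a keratan sulphate member of mineralized matrix that lies between Aspn and Ogn, was close to the limit of detection. Its values were 0.401, 0.376 and 0.290 RPKM in WT cultures, on 12, 11 and 9 reads. The Ucp1-KO values were 0.637, 0.265 and 0.0381 RPKM, on 18, 8 and 1 reads. Replicate 13 was thus the highest and replicate 15 the lowest of all cultures. Over the genotypes, 32 reads stood against 27, a ratio of 1.11 (exact 95% interval 0.646 to 1.93, counting error only), so that a difference was not detectable at this depth.

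Prelp (NM_054077), a class II member that binds both collagen and heparan sulphate and anchors basement membranes, was the only one of the 9 tested with a higher mean in Ucp1-KO cells. It had 159, 96.5 and 83.7 RPKM in WT cultures, against 166, 110 and 82.2 RPKM in Ucp1-KO cultures. Both genotypes ran through the same range, with 1 culture each (WT replicate 10 and Ucp1-KO replicate 13) near the top and another each near the bottom. The log2 fold change of 0.07 (standard error 0.32) changed its sign without WT replicate 11 (-0.02), WT replicate 12 (-0.12) or Ucp1-KO replicate 13 (-0.20). Between 4437 and 9797 reads stood behind these values. Of 3615 exon bases of Prelp, 350 overlap the antisense gene Gm15851, and the library kit does not mark the strand.

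Prelp and its neighbor Fmod ran in different ways over the cultures. The ratio of Prelp to Fmod was 80.2 in WT replicate 10, 12.97 and 16.1 in WT replicates 11 and 12, and between 47.8 and 52.6 in the Ucp1-KO cultures.

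For 8 of the 10 genes, all except Prelp and Omd, the highest culture was WT replicate 11, against 26.8% of all transcripts tested. Ucp1-KO replicate 15 had the lowest value for 7 of the 10. Measured as the deviation of log2(RPKM + 1) from the mean of each gene, the median of the 10 genes was -0.04, 0.72 and 0.20 in the WT cultures. In the Ucp1-KO cultures it was -0.02, -0.24 and -0.44. WT replicate 10 thus lay beside Ucp1-KO replicate 13, and the genotypes overlapped in this median. Over the 9 genes tested, without Omd, these cultures had -0.043 and -0.070, and the genotypes were narrowly apart. The spread within genotypes was wide, with a pooled SD of 0.65 for Lum, 0.61 for Fmod and 0.49 for Aspn and for Prelp on this log2 scale, against a median of 0.17 over all transcripts. For Lum, 97.3% of all transcripts had a smaller spread. In WT cultures the highest value was 4.33-fold the lowest for Lum, 3.74-fold for Fmod and 3.69-fold for Comp, but 1.35-fold for Podn.

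**Figure D3:**
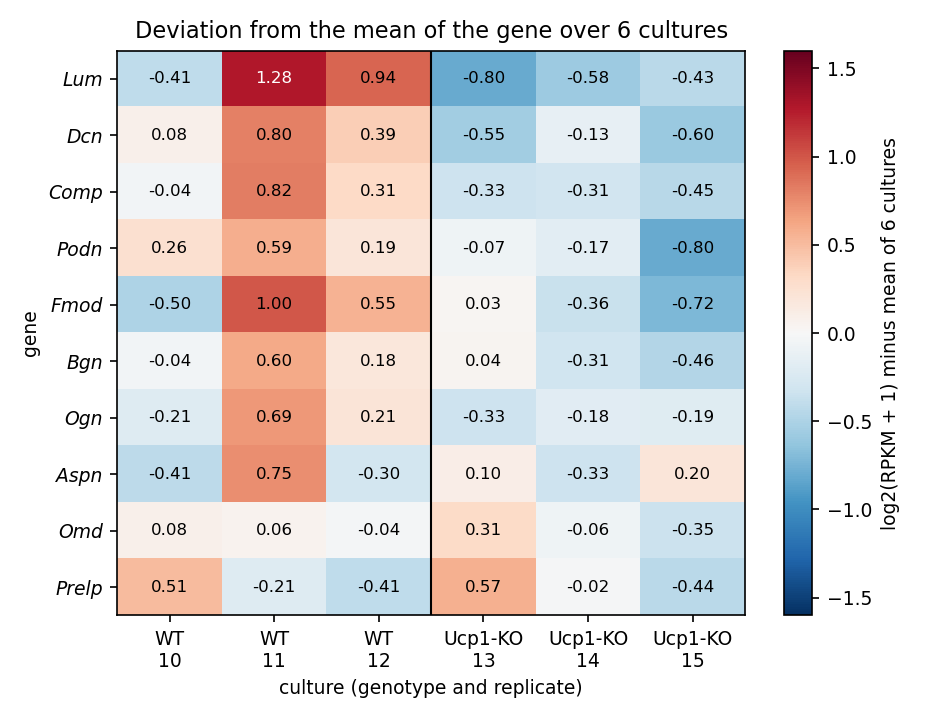
Deviation of log2(RPKM + 1) from the mean of each gene over the 6 cultures, as color and number, with WT cultures on the left of the line. Lum, Dcn, Comp, Podn and Ogn are below 0 in all Ucp1-KO cultures, WT replicate 11 is the highest culture for 8 genes, and Prelp is high in WT replicate 10 (0.51) and Ucp1-KO replicate 13 (0.57).

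For each of the 4 genes that did not overlap, the gene with the most similar pattern was sought among 11205 other genes with a mean of at least 1 RPKM, by the root mean square difference of the deviations over the 6 cultures. It was Car9, a carbonic anhydrase gene, for Lum (0.20), Fam43a for Dcn (0.09), Gcnt2, a glycosyltransferase gene, for Podn (0.09) and Fstl3, which encodes a secreted activin inhibitor, for Comp (0.07). Likeness was measured on the log2(RPKM + 1) scale only, where the added constant dampens the fold change of Comp, and Fstl3 lay at 6.60, 12.5 and 8.23 RPKM in the WT and 5.71, 5.47 and 5.19 RPKM in the Ucp1-KO cultures.

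Of the remaining genes of the proteoglycan family, 5 of 10 were abundant enough to be tested (Ecm2, Chad, Chadl, Tsku and Nepn). With a median log2 fold change of 0.13, 3 were higher and 2 lower in Ucp1-KO cells, the genotypes overlapped for all 5, and none passed the test (smallest limma adjusted p = 0.878). Tsku, which encodes the secreted signaling modulator tsukushi, was by far the most abundant, with 36.0, 32.0 and 40.7 RPKM in WT cultures, against 31.0, 47.2 and 63.7 RPKM in Ucp1-KO cultures. Ucp1-KO replicate 15, the lowest culture for 7 of the 10 genes above, was the highest for Tsku. Among those under the minimum, Podnl1, a relative of Podn, had 0.394, 0.893 and 0.542 RPKM in WT cultures (65 reads in sum) and 0.119, 0.223 and 0.353 RPKM in Ucp1-KO cultures (23 reads), so that its genotypes did not overlap. Optc, an eye proteoglycan next to Prelp, did not overlap in RPKM either, with means of 0.364 and 0.246 RPKM. It had 7, 7 and 8 reads in WT cultures and 2, 7 and 5 reads in Ucp1-KO cultures. WT replicates 10 and 11 and Ucp1-KO replicate 14 thus had 7 reads each, and only the totals of the cultures set them apart. Chad, a cartilage member, had 1.02 ± 0.559 and 1.24 ± 0.189 RPKM (SD, n = 3).

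The directions counted in this and the following lists are those of the mean of log2(RPKM + 1). Shares without overlap are to be read against the 5.15% lower, 6.04% higher and 11.2% in either direction over all transcripts.

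Among the thrombospondins and matrilins related to Comp, 4 of 8 were tested, and all 4 had lower means in Ucp1-KO cells without passing the test (median log2 fold change -0.25, genotypes overlapping for all 4). Thbs1, an activator of TGF-β, had 180, 137 and 152 RPKM in WT cultures, against 176, 81.3 and 89.4 RPKM in Ucp1-KO cultures. Matn2, a matrilin of many tissues, had 4.17 ± 1.11 and 3.34 ± 0.880 RPKM (SD, n = 3). Under the minimum, Matn4 was higher in all Ucp1-KO cultures, with 0.0261, 0 and 0 RPKM in WT cultures (1 read in sum) and 0.193, 0.181 and 0.119 RPKM in Ucp1-KO cultures (18 reads). Thbs4 had 23 reads over the WT and 50 over the Ucp1-KO cultures, and its genotypes overlapped. Matn1, a cartilage matrilin, was listed at 0 in all cultures.

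The collagens that these proteins bind were followed as a list of 14 fibrillar and fibril-associated genes. All 10 that were tested had lower means in Ucp1-KO cells, with a median log2 fold change of -0.29 and 0 past the adjusted threshold. Of these, Col11a1 reached the minimum only through its WT cultures. The genotypes were apart for Col14a1 only, a collagen on the fibril surface (2.21, 9.80 and 3.95 RPKM in WT cultures, 2.20, 1.77 and 1.41 RPKM in Ucp1-KO cultures, log2 fold change -1.002, standard error 0.41). Its lowest WT and highest Ucp1-KO values were nearly equal. Col11a1, a fibril-forming collagen of cartilage and other tissues, had 1.21 ± 0.787 and 0.453 ± 0.222 RPKM, and Col9a1 was listed at 0. Col1a1, the main collagen of fibrous tissue, had 396 ± 156 and 331 ± 86.8 RPKM (SD, n = 3). As with the proteoglycans, WT replicate 11 was the highest culture, for 9 of the 10. Over all collagens of the list it reached 2017 RPKM, against 866 and 1255 RPKM in WT replicates 10 and 12 and 860 to 1323 RPKM in the Ucp1-KO cultures.

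Enzymes that build the sugar chains formed a pair of lists. For chondroitin and dermatan sulphate, 17 of 20 genes tested had lower and 3 higher log2 means in Ucp1-KO cells (median log2 fold change -0.13), among the lower Xylt2 with nearly equal levels (6.56 and 6.62 RPKM), with 0 past the adjusted threshold and 2 lower and 1 higher without overlap. Chst13, a chondroitin sulfotransferase gene, had the largest difference and was higher in all Ucp1-KO cultures, with 0.745, 0.544 and 0.444 RPKM in WT against 1.61, 1.51 and 2.46 RPKM (log2 fold change 0.85, standard error 0.16, limma adjusted p = 0.868). Csgalnact1, which starts the chain, had 3.35 ± 1.46 and 1.93 ± 1.04 RPKM, and B3gat3, a linker enzyme gene and the most abundant of the list, 19.6 ± 1.41 and 19.1 ± 0.397 RPKM (SD, n = 3). For keratan sulphate, all 6 genes tested had lower log2 means (median -0.17), although the mean RPKM of Fut8 was 16.8 in both genotypes. None was apart, and Chst4 and Chst5 were listed at 0. B4galt1, a galactosyltransferase gene and the most abundant, had 61.5 ± 4.74 and 55.3 ± 8.09 RPKM (SD, n = 3). The larger differences were those of B4galt4 (log2 fold change -0.31, standard error 0.14) and Chst2 (-0.27, standard error 0.21).

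The proteases that cleave these proteins had a median log2 fold change of -0.47 over 12 genes tested, 10 of them lower and 2 higher, with 0 past the adjusted threshold. The genotypes were apart for 3 lower genes (Adamts1, Adamts4 and Mmp3) and 1 higher gene, beside 5.15% and 6.04% of all transcripts. Mmp13, a collagenase gene, was the higher one, with 0.876, 1.70 and 1.58 RPKM in WT cultures, against 1.71, 7.63 and 5.69 RPKM in Ucp1-KO cultures, where replicate 13 barely exceeded WT replicate 11 (log2 fold change 1.19, standard error 0.42). Mmp3, stromelysin, was lower (3.83 ± 2.10 against 1.59 ± 0.471 RPKM, SD, n = 3, log2 fold change -0.83, standard error 0.30). Mmp14, a membrane-bound protease gene and the most abundant, had 29.2 ± 5.86 and 20.5 ± 6.69 RPKM (SD, n = 3), and Tll2 was listed at 0.

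Of 14 growth factors and receptors that bind proteoglycans, 12 had lower means (median -0.17; Tgfb2 reached the minimum only through its WT cultures), with 0 past the adjusted threshold and 2 apart, both lower (Egfr and Igf1r), beside 5.15% of all transcripts. Ctgf, a matricellular growth factor gene, was the furthest apart with 70.3, 44.8 and 33.9 RPKM in WT cultures, against 52.8, 15.9 and 13.1 RPKM in Ucp1-KO cultures (log2 fold change -1.05, standard error 0.52), and its genotypes overlapped. Wisp1 of the same family had 5.59 ± 1.06 and 3.69 ± 3.61 RPKM, and the endocytic receptor Lrp1, the most abundant over all 6 cultures, 46.8 ± 6.67 and 38.1 ± 6.503 RPKM (SD, n = 3). Of 7 other secreted proteoglycans tested, 6 had lower means (median -0.12) and none was apart. Hspg2, perlecan, had 26.2 ± 3.15 and 25.2 ± 0.226 RPKM, Esm1 had 6.18 ± 4.63 and 2.66 ± 0.985 RPKM, and Prg4, lubricin, had 6.43 ± 2.27 and 4.04 ± 0.981 RPKM (SD, n = 3).

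Markers of other cell types were set beside these values, over all transcripts of each list. All 7 stromal and preadipocyte markers tested had lower log2 means in Ucp1-KO cells (median log2 fold change -0.44), although the mean of Ly6a was 122 RPKM there and 114 RPKM in WT cells. Of these 7, Pdgfra did not overlap (20.7 ± 1.64 against 16.4 ± 2.84 RPKM, SD, n = 3). The list of 10 genes summed to 326 to 464 RPKM in WT cultures, against 213 to 390 RPKM in Ucp1-KO cultures, highest in WT replicate 11 and lowest in Ucp1-KO replicate 15, and Dpp4, Pi16 and Dlk1 had means under 0.5 RPKM. All 7 mural and smooth muscle markers had lower means as well (median -0.93), of which Rgs5 reached the minimum only through its WT cultures, with sums of 191 to 358 RPKM in WT cultures, against 56.0 to 276 RPKM in Ucp1-KO cultures. Of these 7, Cspg4 (13.8 ± 1.19 against 9.69 ± 1.24 RPKM) and Myh11 (1.34 ± 0.281 against 0.623 ± 0.410 RPKM, SD, n = 3 each) did not overlap. Acta2 had 181, 111 and 93.1 RPKM in WT cultures, against 147, 37.8 and 21.8 RPKM in Ucp1-KO cultures, with WT replicate 10 and Ucp1-KO replicate 13 the highest. Of the other mural markers, Tagln and Cnn1 had the same 2 cultures highest, and Myh11, Rgs5, Cspg4 and Des did not. Endothelial markers ran from 2.76 RPKM in sum in WT replicate 10 to 33.2 RPKM in WT replicate 11, and between 5.55 and 15.6 RPKM in Ucp1-KO cultures. The part of these cell types in the proteoglycan values was not tested.

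The 7 adipocyte markers tested went the other way, with higher means in Ucp1-KO cells for all 7 (median log2 fold change 0.14) and overlapping genotypes for all 7. The 8 tendon and cartilage markers summed to 1.69 to 2.84 RPKM in WT cultures, against 1.02 to 1.95 RPKM in Ucp1-KO cultures, with Matn1 at 0 and Col2a1, Acan and Hapln1 with means under 0.02 RPKM. Sox9 was the most abundant over all cultures (1.21 ± 0.125 and 1.08 ± 0.409 RPKM, SD, n = 3). Tnmd, a tendon membrane protein gene under the minimum, had 0.265, 1.085 and 0.383 RPKM in WT cultures, on 6, 24 and 9 reads. In Ucp1-KO cultures it had 0.187, 0 and 0.0504 RPKM, on 4, 0 and 1 reads. Like Comp it was highest in WT replicate 11 and its genotypes did not overlap. This separation rests on 6 reads in WT replicate 10 against 4 reads in Ucp1-KO replicate 13. Of the same list, Sox9, Scx and Mkx overlapped. Scx was highest in WT replicate 10, with a WT mean of 0.224 RPKM against 0.181 RPKM for the knockout. Mkx was highest in WT replicate 11 but had the lower mean in WT cells (0.0736 against 0.0847 RPKM). The part of these genes in the Comp values was not tested. The mesothelial list was also highest in WT replicate 11 and lowest in Ucp1-KO replicate 15, at 2.09 to 3.49 RPKM in WT cultures, against 2.08 to 2.69 RPKM in Ucp1-KO cultures. Its 2 genes tested ran in opposite directions, with Wt1 at 1.33 ± 0.882 and 0.385 ± 0.223 RPKM and Lrrn4 at 1.30 ± 0.380 and 1.95 ± 0.0961 RPKM (SD, n = 3). Lrrn4 was higher in all Ucp1-KO cultures, and Wt1 reached the minimum only through its WT cultures. The macrophage list was highest in Ucp1-KO replicate 14, at 56.6 to 168 and 41.7 to 776 RPKM, and the muscle list in Ucp1-KO replicate 13, at 2.55 to 6.30 and 2.51 to 12.7 RPKM. Their part in the proteoglycan values was not tested.

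**Figure D4:**
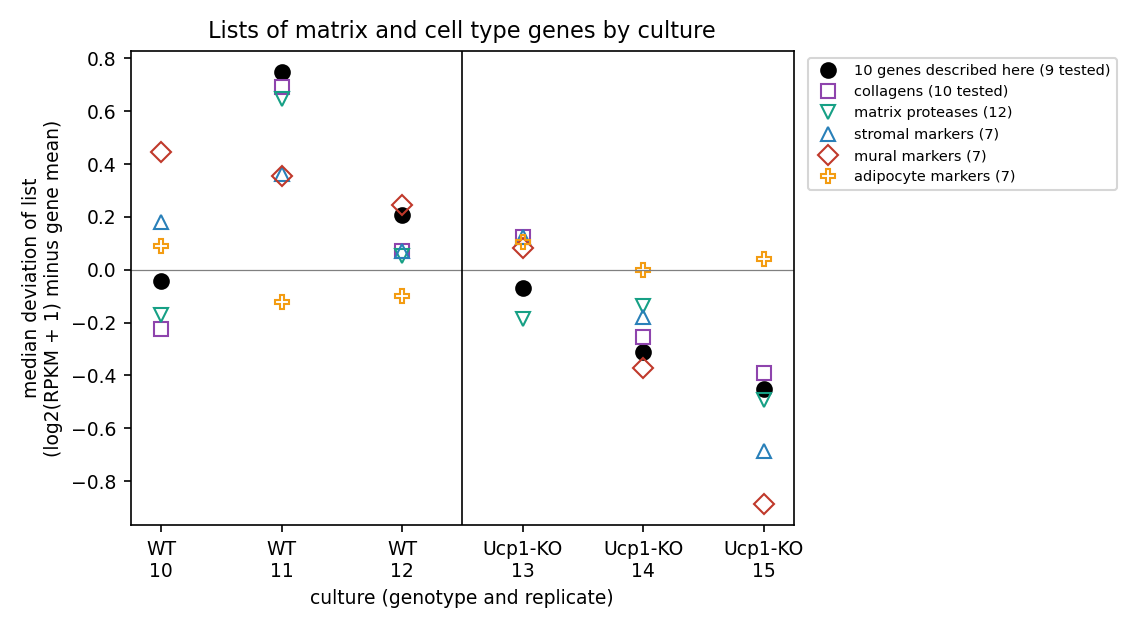
Median deviation of the genes of 6 lists in each culture, on the log2(RPKM + 1) scale, with the number of genes tested in brackets. The genes described here, collagens, matrix proteases and stromal markers are highest in WT replicate 11 and lowest in Ucp1-KO replicate 15. Mural markers are also lowest in Ucp1-KO replicate 15 but highest in WT replicate 10, while adipocyte markers stay between -0.12 and 0.10.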

How the data were processed

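RNA of 3 WT and 3 Ucp1-KO cultures was sequenced as single reads of 50 bases, mapped by the authors to mouse build 38 and assigned to transcripts with Genomatix software, and RPKM values were deposited. The version of the software is not given in the sources used here. Of 168326 rows, the 28890 RefSeq rows were used. The test was limma 3.58.1 (R 4.3.3) on log2(RPKM + 1) with empirical Bayes and an intensity trend. It had genotype as its only term and covered the 16865 transcripts of 12259 genes whose mean reached 0.5 RPKM. Benjamini-Hochberg adjustment ran over all of these, with a threshold of 0.05. The study's own comparison (DESeq2) was not repeated, and recovered reads were used with limma-voom as an alternative.

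Low RPKM values are whole multiples of what 1 read is worth. Totals were found from Ensembl transcripts of known length, 92.8% to 92.9% of whose values came out whole within 0.02 reads, and the smallest length that made all 6 values whole was then taken for each RefSeq transcript. A factor common to all 6 read numbers is missed in this way, and few reads do not fix a length. Found lengths were within 10% of the paired GENCODE transcript for 75.5% of 16529 transcripts tested and under 0.6 of it for 5.35%. For the 10 genes they were between 0.779 and 1.02 of it. Totals were checked on simulated data. The comparison was tested on simulated data for Ucp1-KO against WT, where 162 of 200 transcripts changed 3-fold among 16865 were called, with 166 calls in all, and 0 calls were made with no change. Reads are not independent molecules, and intervals and the floor of 3 reads cover counting error only.

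The genes and lists were chosen with earlier results of these data known. Named genes were the 10 genes, of each gene list (cell type markers excepted) the 2 largest fold changes and the most abundant transcript tested, genes listed at 0, and the most similar gene by pattern. Epyc, Ecm2, Chadl, Nepn, Podnl1, Optc, Xylt2, Fut8, Matn4, Thbs4, Tgfb2, all cell type marker genes and genes counted by direction were named outside this rule after their values were seen. Pxylp1, Ccn2, Ccn4 and Adgre1 were not matched by symbol. Alternatives were 0.1 RPKM added, no minimum (transcripts above 0 in any culture), median-of-ratios scaling, other RefSeq transcripts, 1 transcript per gene, limma-voom on recovered reads and leaving out each culture. The most abundant transcript of any annotation was added after the data were seen. P-values set the difference between the genotypes against the spread among cultures of the same genotype, moderated over all transcripts. Tables and plots were made in Python 3.11.15 (pandas 2.3.3, numpy 2.4.6, matplotlib 3.10.9, scipy 1.17.1).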

Additional observations from a re-analysis of the deposited data

How the results depend on the processing

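No paired analysis was possible because WT and Ucp1-KO cultures have no replicate number in common. The number of genes past the adjusted threshold was 0 under every alternative with a test (the most abundant transcript of any annotation had none), including each of the 6 fits without 1 culture (0 to 0). Over all transcripts it was also 0 throughout, with 935 at an unadjusted limma p under 0.05, 893 with limma-voom on recovered reads, 317 without WT replicate 11, 441 without WT replicate 12 and 1754 without WT replicate 10. The number of genes lower in Ucp1-KO cells was 8 and lay between 7 and 9 without single cultures. The number without overlap was 4 and lay between 4 and 7, with 7 without WT replicate 10, where Bgn, Fmod and Ogn joined and 32.8% of all transcripts did not overlap, against 14.4% to 27.8% without another culture. Lum, Dcn, Podn and Comp were among them under every alternative fitted. Leaving out a culture, changing the constant or dropping the minimum cannot end a separation, so that 4 was the lowest count possible there. The limma-voom setting was counted on the same RPKM values. Only median-of-ratios scaling and a change of transcript could have ended a separation, so that the other alternatives are no check of it. The log2 fold change of Aspn (-0.24 to 0.35) and of Prelp (-0.20 to 0.34) changed its sign without single cultures. The cause was not tested. Depth limited Comp and Omd. It also limited the separation of Lum, which rests on 2.03 RPKM (72 reads) in WT replicate 10 against 1.99 RPKM (62 reads) in Ucp1-KO replicate 15.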
